A study of Mus musculus with 6 samples.

Results

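A set of 9 genes of fat cell formation was followed in cultures labelled as fibroblasts of the mammary fat pad. It held the transcription factors Pparg, Cebpa, Cebpb, Cebpd and Zfp423 and the lipid droplet protein gene Plin2. The fatty acid carrier gene Fabp4, the lipase gene Lpl and the fatty acid receptor gene Cd36 made up the rest. The 9 members were chosen by symbol from a table of 12023 genes, which listed 7 of them. It gave no row to Cd36 or Zfp423, under these symbols or the older ones in RefSeq, and both are not analysed here. Of the 7, Cebpd and Lpl had too few counts for a test across the strains, so 5 members were tested. The cells came from healthy females of 8 to 12 weeks, either BALB/c or C57BL/6, with 3 biological replicates per strain, and were cultured for 4 days on collagen before RNA was taken. Both strains are inbred, no treatment was given, and the design asks for the baseline difference between them. The labels name the cells primary fibroblasts of the mammary fat pad, and the design text mentions magnetic sorting without its target.

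Fat cells form from fibroblast-like precursors of the fat pad in steps. C/EBP beta and C/EBP delta, transcription factors of the basic leucine zipper kind, are induced early and switch on Pparg and Cebpa, and the nuclear receptor PPAR gamma and C/EBP alpha then maintain each other and the genes of the fat cell. Zfp423, a zinc finger protein, marks cells committed to this path and raises Pparg. Among the genes under their control, Lpl releases fatty acids from lipoproteins, Cd36 takes them up, Fabp4 carries them in the cytosol and Plin2 coats the droplets in which they are stored as triglyceride. Several of these genes are also used outside fat: C/EBP beta acts in cytokine responses, and macrophages and endothelial cells use Fabp4 and Cd36.

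Counts came from the 3′ ends of transcripts and are given as CPM, counts scaled to a common library total. Library totals ran from 1035485 to 4665896 counts, so that 3 counts, the floor used here, correspond to 0.612 CPM in the deepest library (C57BL/6 replicate 3) and to 2.90 CPM in the shallowest (BALB/c replicate 3). C57BL/6 replicate 1 stood apart, with a mean correlation of 0.779 with the other 5 libraries, against 0.870 to 0.910 for the others. Markers of mammary epithelium made up 0.210% of the counts of BALB/c replicate 1 and 0.325% of those of C57BL/6 replicate 2, and 0.943% to 1.68% in the other 4 libraries.

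The members lie on 8 chromosomes of GRCm38 (mm10). Cebpb is on chromosome 2 from 167688915 to 167690418, Cebpd on chromosome 16 from 15887286 to 15891031, Cebpa on chromosome 7 from 35119293 to 35121928 and Pparg on chromosome 6 from 115360951 to 115490399. Plin2 is on chromosome 4 from 86648386 to 86670060, Fabp4 on chromosome 3 from 10204088 to 10208576 and Lpl on chromosome 8 from 68880491 to 68907448. The annotation gives Cebpb and Cebpd a single exon each. Pparg has alternative starts: transcripts that start at 115360951 and 115362292 encode 475 residues, and the one that starts at 115422066 encodes 505 residues, the length of the fat-cell form PPAR gamma 2. The ends of these 3 transcripts lie within 5 bases of each other at 115490394 to 115490399, so a 3′ count of Pparg does not say which start was used.

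RefSeq start regions on GRCm38.p6, of 250 bases before the start and 50 after it, were held for 6 of the 9 members. The start regions of 4 members with values are shown because these genes span the levels in the cultures, from Pparg near the bottom of the tested genes to Plin2 near the top. They are written 5′ to 3′ on the strand of the gene, with 4 motifs in capitals on either strand: the C/EBP site TTGCNNAA, the nuclear receptor half-site AGGTCA, the CRE half-site TGACG and the TATA box TATAAA.
Cebpb, chr2:167688665-167688964, plus strand: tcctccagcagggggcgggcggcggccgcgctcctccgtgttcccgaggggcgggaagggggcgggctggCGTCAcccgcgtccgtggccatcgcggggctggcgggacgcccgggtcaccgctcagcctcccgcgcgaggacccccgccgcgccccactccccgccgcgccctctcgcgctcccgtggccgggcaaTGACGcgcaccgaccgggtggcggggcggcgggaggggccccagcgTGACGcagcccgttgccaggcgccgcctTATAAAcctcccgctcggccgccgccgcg
Cebpa, chr7:35119043-35119342, plus strand: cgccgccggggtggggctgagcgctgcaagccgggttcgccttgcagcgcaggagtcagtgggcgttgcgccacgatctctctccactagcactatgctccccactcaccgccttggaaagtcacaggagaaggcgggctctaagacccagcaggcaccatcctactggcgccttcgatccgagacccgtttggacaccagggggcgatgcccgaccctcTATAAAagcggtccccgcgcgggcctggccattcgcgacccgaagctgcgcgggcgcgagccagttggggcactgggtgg
Pparg, start of the 505-residue form, chr6:115421816-115422115, plus strand: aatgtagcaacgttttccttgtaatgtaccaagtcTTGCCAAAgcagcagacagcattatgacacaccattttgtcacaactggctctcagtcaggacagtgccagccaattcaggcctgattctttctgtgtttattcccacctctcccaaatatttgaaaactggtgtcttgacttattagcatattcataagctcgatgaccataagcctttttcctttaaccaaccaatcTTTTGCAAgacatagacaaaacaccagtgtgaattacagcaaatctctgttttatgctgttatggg
Plin2, chr4:86670010-86670309, minus strand: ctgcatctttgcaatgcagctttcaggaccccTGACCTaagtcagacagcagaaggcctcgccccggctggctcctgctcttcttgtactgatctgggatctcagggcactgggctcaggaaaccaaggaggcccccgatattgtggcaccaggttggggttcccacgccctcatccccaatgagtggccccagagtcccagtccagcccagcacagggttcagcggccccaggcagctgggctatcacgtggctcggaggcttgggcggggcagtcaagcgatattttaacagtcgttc

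The start region of Cebpb held 3 CRE half-sites and had a GC content of 80.7%, and its match to the TATA box lay 21 bases after the start. That of Cebpa held a TATA box 30 bases before the start and had a GC content of 67.3%. The start of the 505-residue form of Pparg held 2 C/EBP sites, and its GC content was 40.3%, while neither upstream start region of Pparg held one. Each of these upstream regions held 1 nuclear receptor half-site, as did the region of Plin2. Over all 32851 start regions of this length, 10.8% held the C/EBP site, 16.3% the receptor half-site, 20.8% the CRE half-site and 13.6% the TATA box. A match is a description of letters and says nothing of binding in these cells.

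The early factor Cebpb was among the more abundant transcripts of the cultures. It was at 383, 442 and 345 CPM in BALB/c replicates 1, 2 and 3 and at 510.3, 369.7 and 489.7 CPM in C57BL/6 replicates 1, 2 and 3. C57BL/6 replicates 1 and 3 were the highest, but C57BL/6 replicate 2 lay below 2 of the BALB/c libraries, so the strains overlapped. The means were 389.9 ± 49.3 CPM in BALB/c, against 457 ± 75.9 CPM in C57BL/6 (SD, n = 3 per strain), and the highest library was 1.48 times the lowest. Its mean log2 CPM was higher than or equal to that of 95.8% of the 8752 tested genes, in counts of transcript ends, which are not divided by length.

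Cebpd, the other early factor, was near the floor. It had 0 counts in all 3 BALB/c libraries and in C57BL/6 replicate 1, 1 count in C57BL/6 replicate 2 and 6 counts in C57BL/6 replicate 3, the deepest library. No gene in the table had a maximum below 6 counts, and Cebpd reached 6 only in C57BL/6 replicate 3. Its row may thus rest on that library, and the contrast of the strains is not independent of this. In the BALB/c libraries the floor of 3 counts corresponds to 2.00, 1.07 and 2.90 CPM in replicates 1, 2 and 3. Over the group, 7 counts in C57BL/6 gave 0.935 CPM with an exact 95% counting interval of 0.376 to 1.93 CPM. Of these 7 counts 6 came from the deepest library. For 0 counts over the BALB/c group the exact 95% counting interval ran up to 0.693 CPM, which overlaps that of C57BL/6. These intervals cover counting error only and leave out the spread between libraries. No contrast of the strains is drawn for Cebpd, because its row may be listed only through C57BL/6 replicate 3.

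Overlap with genes on the opposite strand touched the C/EBP genes, and the sources used here do not say whether counting used the strand. Exons of Spidr covered 15.0% of the exon bases of Cebpd and exons of Tmem189 covered 20.7% of those of Cebpb, while an antisense gene, Gm45091, covered 1.93% of those of Cebpa. None of these stretches lay in the last 500 bases of the 3 genes. Spidr, a DNA repair gene, had 9 to 68 counts per library and Tmem189 had 44 to 180. For none of the 9 members did the last 500 nt of the longest coding transcript match another gene at 95% identity over 60 nt.

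Pparg, the central factor of fat cell formation, was expressed near the lower limit of what could be tested. It had 6, 23 and 3 counts in BALB/c replicates 1, 2 and 3, or 4.00, 8.23 and 2.90 CPM, and 14, 9 and 32 counts in C57BL/6 replicates 1, 2 and 3, or 10.7, 7.03 and 6.53 CPM. BALB/c replicate 2 lay above 2 of the C57BL/6 libraries, and the other BALB/c libraries lay below all of them. The means were 5.05 ± 2.81 CPM in BALB/c, against 8.09 ± 2.27 CPM in C57BL/6 (SD, n = 3 per strain). Its mean log2 CPM exceeded or equalled that of 3.87% of the tested genes, and the counting interval of BALB/c replicate 3 alone ran from 0.599 to 8.48 CPM.

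Cebpa, the partner of Pparg in maintaining the fat cell state, was at a middle level. It stood at 48.0, 20.4 and 31.0 CPM in BALB/c replicates 1, 2 and 3 and at 58.1, 34.4 and 30.2 CPM in C57BL/6 replicates 1, 2 and 3. The highest and second highest libraries were replicate 1 of each strain, and the ranges of the strains overlapped over most of their width. The means were 33.1 ± 13.9 CPM and 40.9 ± 15.0 CPM (SD, n = 3 per strain). Among the tested members it had the widest range within BALB/c after Pparg, with the highest library at 2.35 times the lowest. Within each library Cebpb exceeded Cebpa, by 7.97 to 21.7 times in CPM of transcript ends.

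Plin2, the coat protein gene of lipid droplets, was the highest of the members. It was at 762, 1117 and 889 CPM in BALB/c replicates 1, 2 and 3 and at 675, 708 and 798 CPM in C57BL/6 replicates 1, 2 and 3. BALB/c replicates 2 and 3 lay above all C57BL/6 libraries, and BALB/c replicate 1 lay below C57BL/6 replicate 3. The means were 923 ± 180.0 CPM in BALB/c, against 727 ± 64.0 CPM in C57BL/6 (SD, n = 3 per strain). Its mean log2 CPM exceeded or equalled that of 98.0% of the tested genes.

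Fabp4, the fatty acid carrier used as a marker of fat cells, was at 36.0, 51.2 and 53.2 CPM in BALB/c replicates 1, 2 and 3 and at 50.4, 46.9 and 67.1 CPM in C57BL/6 replicates 1, 2 and 3. The strains overlapped, with BALB/c replicate 1 the lowest and C57BL/6 replicate 3 the highest library. The means were 46.8 ± 9.40 CPM and 54.8 ± 10.8 CPM (SD, n = 3 per strain).

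Lpl, the lipase that releases fatty acids from lipoproteins, had 13, 6 and 5 counts in BALB/c replicates 1, 2 and 3 and 0, 5 and 10 counts in C57BL/6 replicates 1, 2 and 3. These are 8.67, 2.15 and 4.84 CPM against 0, 3.91 and 2.04 CPM, where the floor of 3 counts in the library with 0 is 2.29 CPM. BALB/c replicate 1 was the highest, and the strains overlapped. Summed over each strain, 24 counts in BALB/c and 15 in C57BL/6 gave a ratio of 2.25 with a 95% counting interval of 1.13 to 4.61, which leaves out the spread between libraries. Without the filter on low counts, edgeR gave Lpl a log2 difference, BALB/c minus C57BL/6, of 1.32 ± 0.92 (SE), with a 95% interval of -0.80 to 3.43 and an adjusted p of 0.961.

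**Figure D1:**
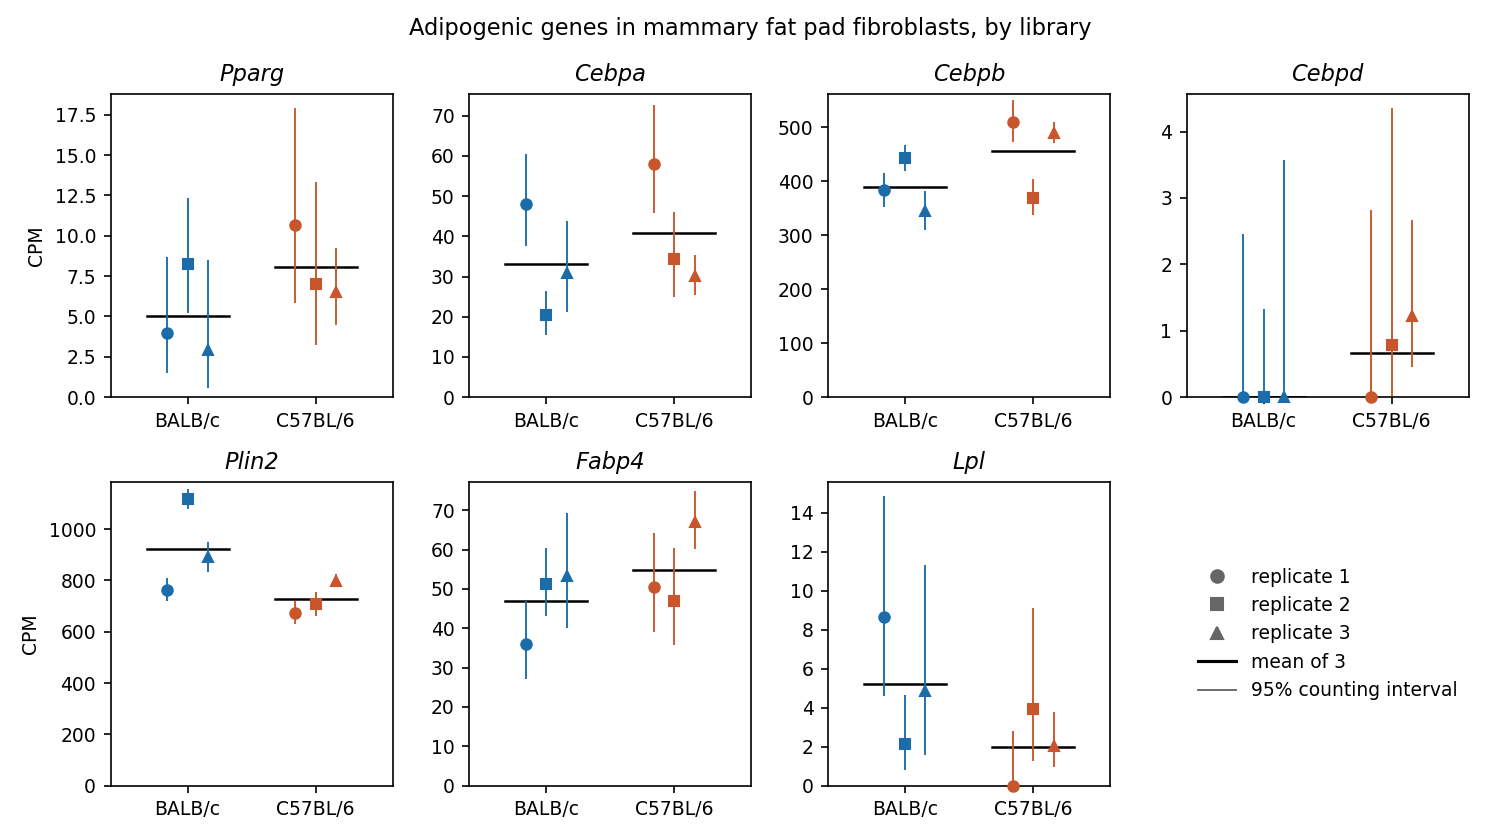
CPM (y axis, linear from 0) of the 7 members in the table, in each of the 6 libraries grouped by strain on the x axis; marker shapes give the replicate, vertical lines the exact 95% counting interval and horizontal lines the mean of 3. The ranges of the strains overlap in every panel, and Pparg, Cebpd and Lpl stay under 11 CPM.

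The comparison of the strains asked which members differed at baseline. None of the 5 tested members passed an adjusted p of 0.05 in edgeR's quasi-likelihood test, where 0.206% of all 8752 tested genes did, and 0 of the 5 had an unadjusted p under 0.05, against 3.86% of all tested genes. The same count was 0 with DESeq2, which called 0.811% of the genes it tested, and 0 with limma-voom. In 0 of the 5 did every library of one strain lie above every library of the other, against 11.4% of all tested genes. The median log2 difference, BALB/c minus C57BL/6, was -0.23 over the 5 members and 0.01 over all tested genes.

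Plin2 was the one tested member with a higher mean in BALB/c. Its log2 difference was 0.34 ± 0.24 (SE), with a 95% interval of -0.21 to 0.90, so a BALB/c level from 0.866 to 1.86 times that of C57BL/6 was compatible with the spread between libraries (edgeR adjusted p = 0.954). Cebpb had a log2 difference of -0.23 ± 0.24, with an interval of -0.79 to 0.33, and Fabp4 one of -0.23 ± 0.29, with an interval of -0.92 to 0.45. These 3 genes carried the narrowest intervals, and for each a 2-fold difference in either direction lay outside the interval.

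Cebpa had a log2 difference of -0.30 ± 0.43, with a 95% interval of -1.30 to 0.70, and Pparg one of -0.58 ± 0.56, with an interval of -1.88 to 0.73. All 5 members shared the edgeR adjusted p of 0.954. For Pparg the interval spans from 3.68 times higher in C57BL/6 to 1.66 times higher in BALB/c, and for Cebpa from 2.46 to 1.62 times, so a 2-fold excess in C57BL/6 was not distinguishable from none in either. Pparg had -1.18 without BALB/c replicate 2, the BALB/c library with the most of it, and -0.32 without C57BL/6 replicate 1. Cebpa had 0.016 without C57BL/6 replicate 1, the library that stood apart, and -0.68 without BALB/c replicate 1.

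**Figure D2:**
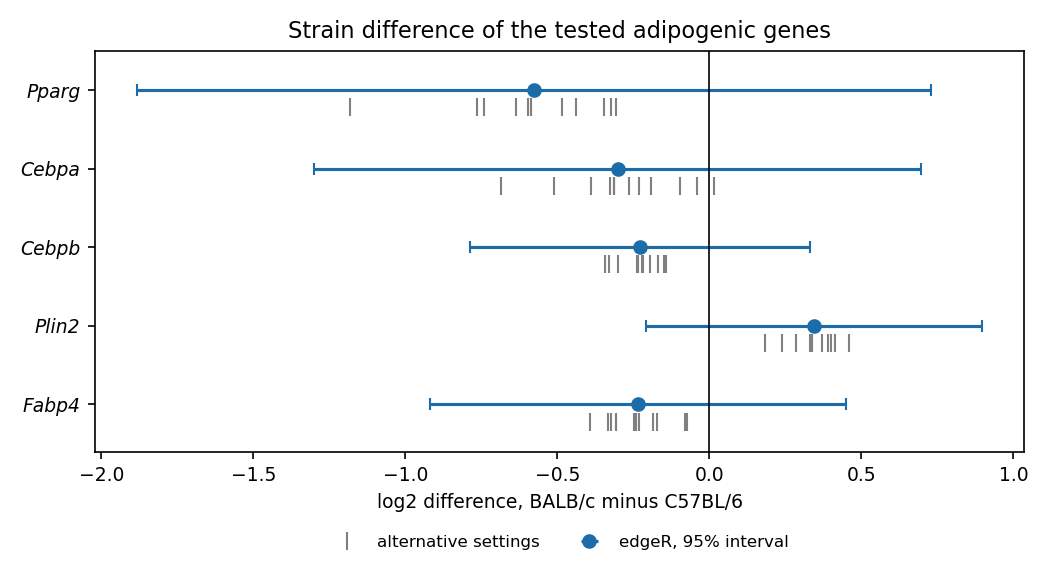
The log2 difference, BALB/c minus C57BL/6 (x axis), of the 5 tested members (y axis): points and bars give edgeR's estimate with its 95% interval, and grey ticks the estimates under the alternative settings. Every interval includes 0, and among the ticks only 1, of Cebpa at 0.016, lies on the other side of 0 from its point.

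The wider circuits of fat cell formation were read from lists chosen for these circuits. As edgeR called 0.206% of all tested genes, a count of 0 does not set lists this short apart from other genes. Of 22 adipogenic regulators 14 were tested, 3 of them members, and 0 passed in either direction in edgeR, with a median log2 difference of -0.30. Srebf1, a factor of fatty acid synthesis that supports Pparg, was at 122 ± 21.9 CPM in BALB/c, against 154 ± 57.8 CPM in C57BL/6 (SD, n = 3 per strain), a log2 difference of -0.33 ± 0.32 (SE). Tle3, a co-regulator that works with PPAR gamma, had -0.26 ± 0.29. Of 19 inhibitors of adipogenesis 15 were tested and 0 passed, with a median of 0.27. The growth factor gene Tgfb1 had a log2 difference of -0.29 ± 0.43, and Ctnnb1, the beta-catenin of Wnt signalling, 0.54 ± 0.67. Dlk1, which encodes the preadipocyte factor Pref-1, was not analysed here.

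Lists of genes related to the members also gave a count of 0, against 0.206% of all tested genes. Of 7 genes with a C/EBP name or fold 4 were tested. Ddit3, the stress-induced C/EBP that blocks its relatives, had a log2 difference of 0.05 ± 0.54, and Cebpz, which carries the name but encodes a CCAAT-binding protein without the leucine zipper, 0.97 ± 0.75. Of 6 PPAR and RXR receptors 4 were tested, Pparg included, and their log2 differences ran from -0.71 to -0.30. Rxrb, a dimer partner of the PPARs, was at 58.2 ± 6.33 CPM in BALB/c, against 95.3 ± 36.2 CPM in C57BL/6 (SD, n = 3 per strain), a log2 difference of -0.71 ± 0.32 (SE, edgeR adjusted p = 0.954). Ppard, the PPAR found in most tissues, was at 55.5 ± 4.83 and 68.5 ± 16.1 CPM, a level in transcript ends above that of Pparg in every library, with a log2 difference of -0.30 ± 0.27. Without C57BL/6 replicate 1 the log2 differences of Rxrb and Ppard were -0.37 and -0.11. Ppara had 0 to 7 counts per library.

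Genes of lipid handling also showed 0 calls, against 0.206% of all tested genes. In the list of fatty acid uptake, 16 of 22 genes were tested, with a median log2 difference of -0.16. Fabp5, a relative of Fabp4, was at 238 ± 24.6 CPM in BALB/c, against 165 ± 43.9 CPM in C57BL/6 (SD, n = 3 per strain), a log2 difference of 0.53 ± 0.26 (SE), and Lrp1, a receptor for lipoproteins, had -0.09 ± 0.37. In the list of lipid droplets and triglyceride turnover, 14 of 21 were tested, 10 had a negative and 4 a positive log2 difference, and the median was -0.49, or -0.18 without C57BL/6 replicate 1. Plin2 was 1 of the 4. Plin3, a droplet coat protein made in most cells, was at 111 ± 23.9 and 135 ± 5.80 CPM, with -0.28 ± 0.24, and Pnpla2, which encodes the triglyceride lipase ATGL, had -0.76 ± 0.49, and -0.19 without C57BL/6 replicate 1. Plin1, Plin4, Plin5 and Cidec, the droplet genes of fat cells and oxidative tissues, were not analysed here.

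Of 24 PPAR target genes 17 were tested, with a median log2 difference of 0.18, and 0 passed, against 0.206% of all tested genes. Ucp2, a carrier of the inner mitochondrial membrane, was at 497 ± 88.6 CPM in BALB/c, against 253 ± 152 CPM in C57BL/6 (SD, n = 3 per strain), a log2 difference of 0.97 ± 0.47 (SE), and Acadl, which oxidises long-chain fatty acids, had 0.09 ± 0.33. Of 16 genes of the cytokine response in which C/EBP beta and C/EBP delta take part, 14 were tested and 0 passed, with a median of -0.26. Its sign was not stable, since it was 0.23 without C57BL/6 replicate 2 and 0.026 under the stricter filter of 50 counts on average. Lcn2, an acute-phase gene under C/EBP control, had a log2 difference of -1.71 ± 1.00, and Junb, a subunit of AP-1, had -0.42 ± 0.35. Lcn2 was at 131 CPM in BALB/c replicate 1 and 292 CPM in C57BL/6 replicate 2, the libraries with the fewest counts of epithelial markers, and at 772 to 4286 CPM in the other 4, and the part of epithelium in its difference was not tested.

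Of 19 genes of fat pad progenitor fibroblasts 10 were tested, with a median log2 difference of -0.20. Of these 1 passed, against 0.206% of all tested genes. This was Ly6a, the gene of the surface antigen Sca-1, by which adipocyte precursors are often sorted, with 15.0 ± 4.39 CPM in BALB/c, against 267 ± 141 CPM in C57BL/6 (SD, n = 3 per strain) and a log2 difference of -4.16 ± 0.55 (SE, edgeR adjusted p = 0.0493). The adjusted p stayed under 0.05 in 5 of the 13 alternatives, while the log2 difference ran from -4.53 to -3.87 over the libraries left out. Pdgfra, a receptor of these precursors, was at 16.2 CPM in BALB/c, against 17.1 CPM in C57BL/6 on average, with a log2 difference of -0.09 ± 0.63. Of the 10 tested genes 4 had a positive and 6 a negative log2 difference, from -4.16 for Ly6a to 1.75. Without overlap between the strains, 1 was higher and 3 were lower in BALB/c, against 11.4% of all tested genes in either direction. Dpp4, Pi16 and Cd55, markers of early progenitors, were not analysed here.

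**Figure D3:**
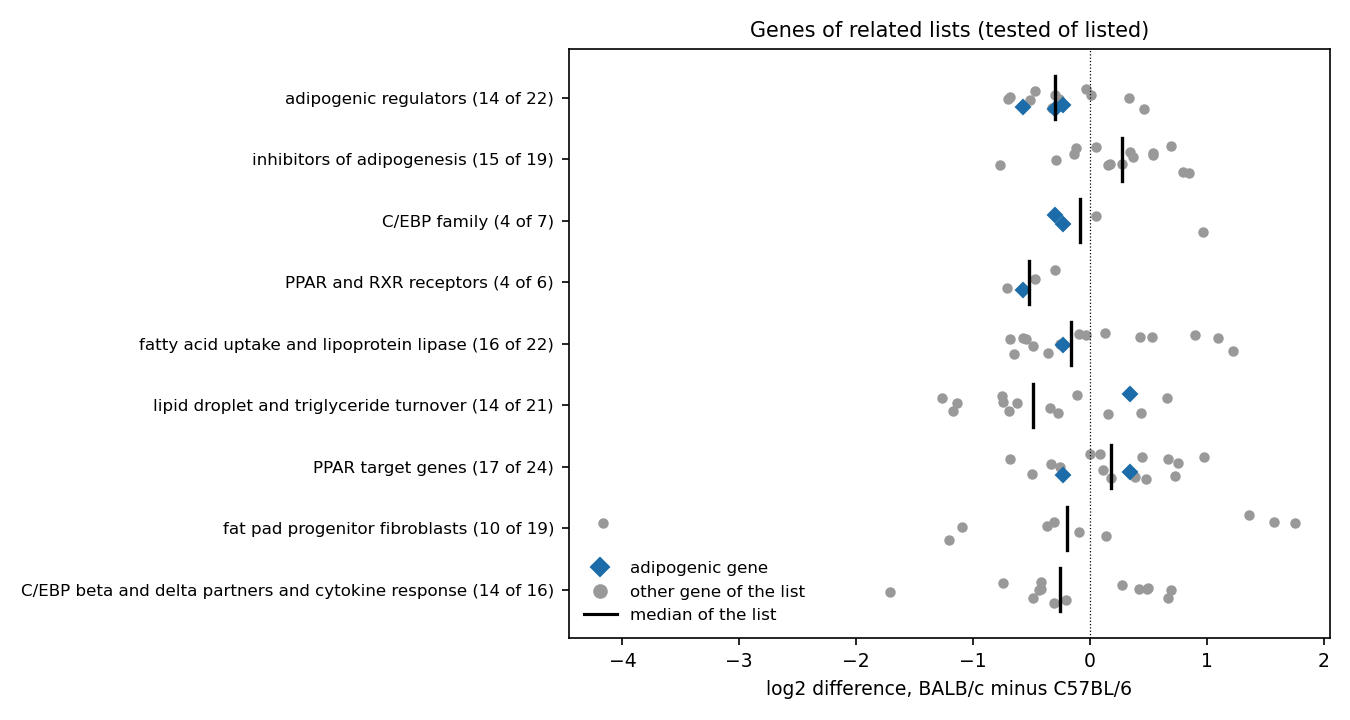
The log2 difference, BALB/c minus C57BL/6 (x axis), of each tested gene of 9 related lists (y axis, with the number tested of those listed): blue diamonds are members, grey points other genes and black bars the median of the list. The medians lie between -0.52 and 0.27, and the single gene past the threshold is Ly6a at -4.16.

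Markers of fat cells and of other cells were read beside the members. Of 14 markers of mature fat cells, 6 were in the table and 3 were tested, and 0 passed, against 0.206% of all tested genes. The defining genes Adipoq, Lep, Plin1 and Cfd were not analysed here. Summed over the 6, fat cell markers reached 20.7 to 40.6 CPM in BALB/c, against 29.8 to 51.9 CPM in C57BL/6. The 3 tested markers differed in sign and had a median log2 difference of 0.38: Car3, a carbonic anhydrase gene, had 0.88 ± 0.70, Pck1, a gene of glycerol synthesis, 0.38 ± 0.61, and Lipe, the hormone-sensitive lipase gene, -1.26 ± 0.68 (SE).

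Fibroblast markers, 10 of 11 in the table, summed to 4383 to 10903 CPM in BALB/c, against 2376 to 11709.5 CPM in C57BL/6, with C57BL/6 replicate 1 the lowest. Lum was not analysed here. In that library Pparg, Cebpa and Cebpb were at their highest and Plin2 at its lowest. Macrophage markers, all 14 in the table, summed to 675 to 991 CPM in BALB/c, against 988 to 1865 CPM in C57BL/6. All 11 that were tested had a negative log2 difference, with a median of -1.08, where 4284 of all 8752 tested genes had one. Of the 11, 6 did not overlap between the strains and were lower in BALB/c, against 11.4% of all tested genes in either direction. Past the threshold were 0 of the 11 and 0.206% of all tested genes. The library with the most macrophage markers was C57BL/6 replicate 1. The part of macrophages in the levels of Cebpb, Plin2 and Fabp4, which they also express, was not tested. Endothelial markers, 9 of 11 in the table, summed to 50.5 to 93.9 CPM in BALB/c, against 75.7 to 134 CPM in C57BL/6. Pericyte and smooth muscle markers, 10 of 11 in the table, summed to 569 to 753 CPM in BALB/c, against 1061 to 1284 CPM in C57BL/6, which did not overlap, and 0 of the 8 tested passed. Of the 8, only Cnn1 and Actg2 did not overlap between the strains, where 11.4% of all tested genes did not. Cnn1 averaged 180 CPM in BALB/c, against 428 CPM in C57BL/6, and Actg2 107 CPM against 287 CPM. In such bulk cultures fewer cells of a type and less RNA per cell cannot be told apart.

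Epithelial markers, 12 of 13 in the table, summed to 2040, 12167 and 9449 CPM in BALB/c replicates 1, 2 and 3 and to 19513, 3287 and 10634 CPM in C57BL/6 replicates 1, 2 and 3. In the same order fibroblast markers summed to 10903, 4383 and 7789 CPM and to 2376, 11709.5 and 5558 CPM. The epithelial sum was thus the larger in BALB/c replicates 2 and 3 and in C57BL/6 replicates 1 and 3. Levels of the members are therefore those of the cultures, not of fibroblasts alone. Cebpb was at 383 and 369.7 CPM in the pair of libraries with the least epithelium and at 345 to 510.3 CPM in the other 4. Plin2 was at 762 and 708 CPM in that pair and at 675 to 1117 CPM in the other 4. Fabp4 was at 36.0 and 46.9 CPM there, below the 50.4 to 67.1 CPM of the other 4. Its exact 95% counting intervals overlapped, with 35.8 to 60.4 CPM in C57BL/6 replicate 2 and 39.0 to 64.1 CPM in C57BL/6 replicate 1. How many other genes split the libraries in this way was not counted. The part of epithelial cells in the levels of Cebpb, Plin2 and Fabp4 was not tested.

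**Figure D4:**
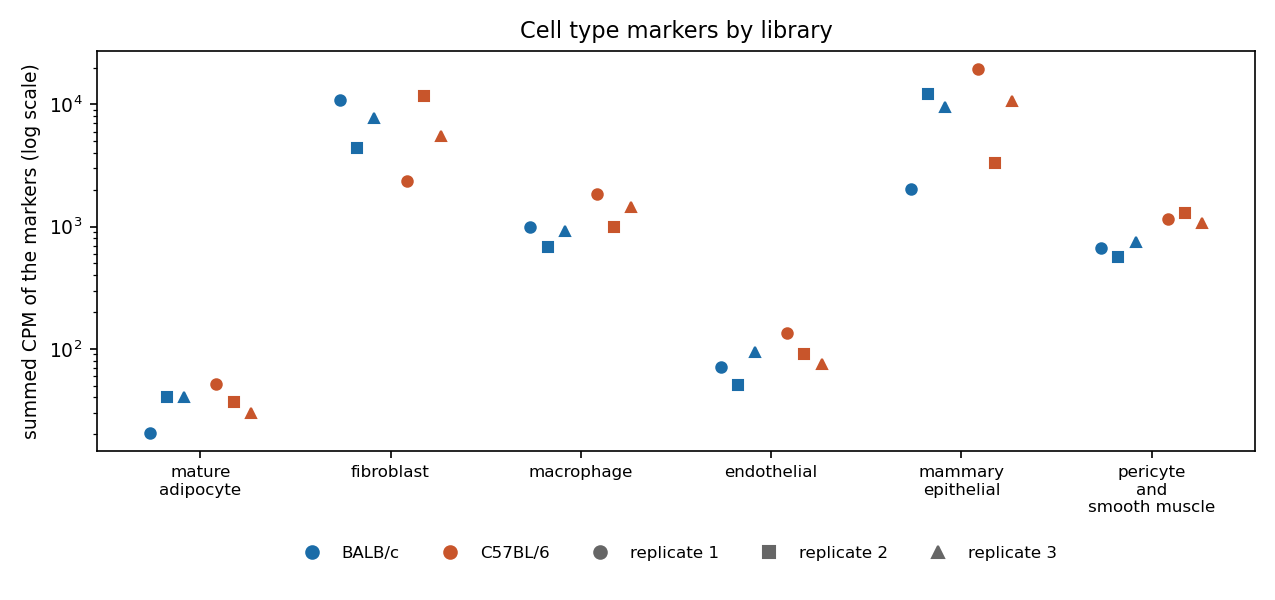
Summed CPM (y axis, log scale) of 6 sets of cell type markers (x axis) in each library, coloured by strain with marker shapes for the replicate. Fat cell markers stay between 20.7 and 51.9 CPM, while epithelial markers range from 2040 to 19513 CPM with BALB/c replicate 1 and C57BL/6 replicate 2 lowest.

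The members did not move as 1 group across the libraries. Over the 6 libraries, Pearson's r of log2 CPM was 0.79 between Pparg and Cebpb, -0.86 between Cebpa and Plin2, and 0.09 between Pparg and Cebpa. Plin2 and Fabp4 had 0.20. These are descriptions over 6 libraries that share depth and composition differences. The genes outside the members whose pattern was most like that of Pparg, among 4509 whose log2 CPM averaged 5 or more, were Mrpl44, which encodes a mitochondrial ribosomal protein (r = 0.95), Diablo, a mitochondrial regulator of apoptosis (r = 0.95), and Bcl10, a signalling adaptor (r = 0.94). Those most like the mean of the 5 tested members, each standardised, were Maea (r = 0.98), Ssbp3 (r = 0.98) and the kinase gene Mapkapk3 (r = 0.96). That mean was highest in C57BL/6 replicate 1 and lowest in BALB/c replicate 1. The genes named here have the highest r of 4509 over 6 libraries, which is no evidence of a link. Pparg itself had only 3 to 32 counts per library.

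Ratios within a library do not depend on the scaling between libraries. After the values were seen, 4 ratios of members were compared, and their p-values do not account for that choice. Plin2 stood at 21.1, 21.8 and 16.7 times Fabp4 in BALB/c replicates 1, 2 and 3 and at 13.4, 15.1 and 11.9 times in C57BL/6 replicates 1, 2 and 3. The strains did not overlap, with a difference of 0.56 in the log2 ratio (exact two-sided permutation p = 0.1, the smallest that 3 against 3 libraries can give, and 0.2 adjusted over the 4 ratios). Of all other tested genes, 8.78% had a ratio to Fabp4 that did not overlap between the strains.

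Plin2 stood at 1.99, 2.53 and 2.58 times Cebpb in BALB/c replicates 1, 2 and 3 and at 1.32, 1.92 and 1.63 times in C57BL/6 replicates 1, 2 and 3, again without overlap (exact two-sided permutation p = 0.1, and 0.2 adjusted over the 4 ratios). Of all other tested genes, 10.2% had such a ratio to Cebpb. The ratios of Cebpb to Cebpa and of Fabp4 to Pparg overlapped between the strains (exact permutation p = 0.9 and 0.5).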

How the data were processed

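The authors deposited raw, whole-number counts by gene symbol, with 1 column per library. STAR 2.4.2a, HTSeq, bcl2fastq and the build mm10 are named in the submitters' processing notes, and per the labels' protocols the libraries covered 3′ mRNA ends. The sources used here do not state strand use, annotation or the handling of molecular identifiers. Columns were matched to samples by library name. Replicates of a strain differed by more than sampling noise (chi-square over its degrees of freedom, 10.8 to 57.2), so each counted once.

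The strains were compared in edgeR 4.0.16 (R 4.3.3): filterByExpr by strain (8752 genes kept), TMM factors of 0.866 to 1.06, a robust quasi-likelihood fit with strain as the only term, two-sided, Benjamini-Hochberg over all tested genes, threshold 0.05. SE is the size of the log2 difference divided by the square root of F. CPM use TMM-scaled totals, and log2 CPM a prior count of 2. Alternatives used DESeq2 1.42.0, limma 3.58.1, other scalings and filters, a replicate block and each library left out. Positions and overlaps are from GENCODE vM21, start regions from RefSeq, and similar 3′ ends from BLAST+ 2.17.0. Members, lists and the rule for named genes (all members, and from each list those past the threshold, at most 2 per direction, or the 2 highest) were chosen with earlier results of these data known. Pdgfra, the tested fat cell markers, the partners Spidr and Tmem189, Ppara, Cnn1 and Actg2 were named after their values were seen. P-values of edgeR set the strain difference against the spread between these libraries, moderated over the tested genes. The exact permutation p-values give the share of regroupings of the libraries with a difference at least as large.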

Additional observations from a re-analysis of the deposited data

How the results depend on the processing

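The count of genes past the threshold, 18 with 6 higher and 12 lower in BALB/c, was 11 with library totals alone (5 higher, 6 lower), 71 with DESeq2 (25 and 46), 57 with quality weights for libraries in limma-voom (25 and 32) and 0 to 25 when 1 library was left out. It was 0 when C57BL/6 replicate 3, or either of BALB/c replicates 2 and 3, was left out, where edgeR gave 261, 205 and 226 genes with an unadjusted p under 0.05, 4 without BALB/c replicate 1, and 5 without C57BL/6 replicate 2. The edgeR fit with the replicate block gave 0 (158 with an unadjusted p under 0.05). Same-numbered libraries deviated from their strain means with correlations of -0.42, -0.40 and -0.08, and what they share besides the number was not tested. The cause of the changes in the count of genes was not tested. The count of tested members past the threshold was 0 in all 13 alternatives, and their median stayed between -0.34 and -0.15. Pparg was not tested at a mean of at least 50 counts. Cebpb, Plin2, Fabp4 and Pparg kept their sign in every alternative that tested them, and Cebpa ran from -0.68 to 0.016 over the libraries left out. With quality weights the log2 differences of Tgfb1, Lrp1 and Acadl were 0.40, 0.091 and -0.089, and with the replicate block that of Ddit3 was -0.088, all opposite in sign to those reported. Over the libraries left out Tgfb1 ran from -0.57 to 0.27, Tle3 from -0.42 to 0.011, Ddit3 from -0.72 to 0.44, Lrp1 from -0.38 to 0.19 and Acadl from -0.26 to 0.30. Without C57BL/6 replicate 1 the log2 differences of Srebf1, Ctnnb1, Lcn2 and Junb were -0.0028, 0.033, -0.78 and -0.096. The median of the adipogenic regulators ran from -0.46 without C57BL/6 replicate 3 to -0.16 without C57BL/6 replicate 1. That of the lipid droplet list was also nearer 0 under the stricter filter (-0.22) and with quality weights (-0.30), and that of the cytokine list without BALB/c replicate 2 (-0.047) and with the replicate block (-0.057). Ly6a lost its call in 8 alternatives, with an adjusted p of up to 0.596, while its log2 difference stayed between -4.53 and -3.87 over the libraries left out and was -3.99 with the replicate block. Pparg, Cebpd and Lpl had the fewest counts of the members, 87, 7 and 39 over all libraries.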
